A study of Homo sapiens with 4 samples.

Results

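The replication-dependent histone genes are the 73 symbols of the deposited table that begin with HIST1H, HIST2H, HIST3H or HIST4H, among 26830 symbols in all. By histone type they comprise 6 H1, 18 H2A, 20 H2B, 14 H3 and 15 H4 genes. The choice used the symbol alone and no measured value. Transcript levels were measured by RNA immunoprecipitation followed by sequencing (RIP-seq) in NOMO-1, an established human acute myeloid leukemia line, and each gene was compared between RNA recovered with an anti-Flag antibody (Flag-IP) and RNA of the lysate before the pull-down (input). The cells of all 4 libraries overexpressed ALKBH5, an RNA demethylase that removes N6-methyladenosine, from a lentivirus with a 3xFlag tag; GFP-positive cells were sorted after puromycin selection, and RNA and protein were UV-crosslinked before lysis. There were 2 input and 2 Flag-IP libraries, numbered 1 and 3 in the labels. No pull-down from cells without the tagged protein was analysed here, so RNA bound to ALKBH5 and RNA carried over on the beads cannot be told apart. Nothing says that the libraries came from separate cultures, so the spread that the p-values measure, between libraries, may be only technical.

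Core histones H2A, H2B, H3 and H4 form the protein octamer that DNA wraps around, and the linker histone H1 binds the DNA that enters and leaves it. Replication-dependent histone genes are transcribed mainly in S phase, and most of their mRNAs end in a conserved stem-loop instead of a poly(A) tail. The stem-loop is bound by SLBP, the messenger's 3' end is cut with the help of the U7 small nuclear RNA, and the mRNA is degraded when DNA synthesis stops. Some of these genes also make longer polyadenylated transcripts.

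The 3' stem-loop is the feature that sets these mRNAs apart, and its sequence divided the H4 genes from the H2A, H2B and H3 genes. A stem-loop of the histone form (a stem of 6 bases that begins with GG and ends with T, a loop of 4 bases that begins with TT, then the reverse complement of the stem, on the sense strand) was looked for in the GENCODE 29 transcripts. It was found in 30 of the 36 members whose gene model reaches past the stop codon, 22 to 67 bases after the stop, in the 3' UTR. No H1 gene had a match, but only 2 of the 6 H1 models reach past the stop codon. This does not show that H1 mRNAs lack the stem-loop. Another 34 models end at the stop codon, where no match could be made, and 3 members are annotated as pseudogenes. Of all 57134 GENCODE genes, 91 (0.159%) hold this form. For 2 genes each of H2A and H3, 1 of H2B and 3 of H4, the stem-loop and the bases around it read as follows, written as DNA from 5' to 3', with the stem in capitals.
HIST1H2AI: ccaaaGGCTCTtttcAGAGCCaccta
HIST3H2A: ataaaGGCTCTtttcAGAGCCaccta
HIST1H2BC: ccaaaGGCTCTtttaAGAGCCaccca
HIST1H3H: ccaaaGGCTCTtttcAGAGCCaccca
HIST2H3A: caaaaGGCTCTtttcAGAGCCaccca
HIST1H4J: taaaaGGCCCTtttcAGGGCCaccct
HIST1H4H: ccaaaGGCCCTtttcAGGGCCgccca
HIST2H4A: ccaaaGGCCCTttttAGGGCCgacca
In GRCh38 coordinates these stretches lie at chr6:27808642-27808667 for HIST1H2AI (plus strand), chr1:228457364-228457389 for HIST3H2A (minus) and chr6:26123467-26123492 for HIST1H2BC (minus). Those of the H3 genes lie at chr6:27810511-27810536 for HIST1H3H (plus) and chr1:149853100-149853125 for HIST2H3A (plus). Those of the H4 genes lie at chr6:27824454-27824479 for HIST1H4J (plus), chr6:26285126-26285151 for HIST1H4H (minus) and chr1:149833027-149833052 for HIST2H4A (plus). All 8 H4 genes with a match had the stem GGCCCT, with the loop TTTC in 5 and TTTT in 3. All 22 H2A, H2B and H3 genes with a match had the stem GGCTCT, with the loop TTTC in 17 and TTTA in 5. The match counted for HIST1H2BN, at chr6:27865773-27865798, lies just past the end of HIST1H2AL (chr6:27865355-27865747), on the same strand. It may be the stem-loop of that H2A gene, whose own model ends at the stop codon.

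Values are TPM (transcripts scaled to a fixed library total), which are scaled to the transcript length and to the library total. The annotation behind the TPM is not given in the sources used here. A gene model without a UTR gives another TPM from the same reads, so the order of levels between genes depends on models that were not seen. TPM keeps no depth, so the number of reads behind a value is unknown and no counting interval is given. Structural RNAs such as ribosomal and small nuclear RNA held 96.8% and 96.3% of the TPM in input 1 and 3 and 92.5% and 93.6% in Flag-IP 1 and 3. Most other genes were higher in Flag-IP on the deposited scale, with a median ratio of 2.38 over the 6487 genes tested. With the structural RNAs left out, the median log2 difference was 0.24 over 6283 genes. What part the structural RNAs have in the general rise was not tested. Differences were also read on a median-ratio scale, on which the typical gene does not move. The median log2 difference over all tested genes was 0.84 as deposited and -0.01 on the median-ratio scale. The summed level of 12 myeloid markers was 68.9 and 82.1 TPM in input and 134 and 125 TPM in Flag-IP. Of the 12, 8 were tested, 1 was listed at 0 in every library, and the highest alone had a mean of 39.4 TPM. MPO stood at 0.01 and 0.05 TPM in input and 0.06 and 0.13 TPM in Flag-IP, and LYZ was also not tested. Summed T cell and epithelial markers were listed at 0 in all 4 libraries, and B cell, erythroid and fibroblast markers reached at most 0.29 TPM in any library.

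Histone mRNAs were prominent among the RNAs that are not structural. They held 12.7% and 12.02% of that TPM in input 1 and 3, and 11.3% and 12.9% in Flag-IP 1 and 3, so the groups overlapped. In the input, 42 of the 200 highest such genes were histone genes. Their summed level was 4047 and 4391 TPM in input 1 and 3 and 8476 and 8282 TPM in Flag-IP 1 and 3, which is 1.99 times the input. The same ratio was 0.831 after median-ratio scaling and 0.982 with the structural RNAs left out, so its direction depends on the scale. In bulk libraries such as these, more cells with a transcript and more of it per cell cannot be told apart. Of the 73 members, 58 had a mean of at least 1 TPM over the 4 libraries and were tested (4 H1, 15 H2A, 17 H2B, 11 H3 and 11 H4). HIST1H2BE lay under this filter with a mean of 0.375 TPM, and the nearest members inside it were HIST2H2BC (1.12 TPM), HIST1H3I (2.49 TPM) and HIST3H2A (2.57 TPM). The other 14 members were listed at 0 in every library. They were HIST1H1A, HIST1H1T, HIST1H2AA, HIST1H2AE, HIST1H2APS1, HIST1H2BA, HIST1H2BG, HIST1H3E, HIST1H3G, HIST1H4F, HIST1H4G, HIST1H4L, HIST3H3 and HIST4H4, and include the testis histones HIST1H1T, HIST1H2AA, HIST1H2BA and HIST3H3. A 0 here is no measured absence, since H3F3A, a histone H3.3 gene that nearly every cell uses, was also listed at 0 in all 4 libraries.

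The make-up of the histone mRNA pool differed between Flag-IP and input. H4 and H3 mRNAs took a larger share of the histone TPM in Flag-IP, H2A and H1 mRNAs a smaller one, and the H2B share overlapped. H4 held 23.4% and 23.3% in input 1 and 3 and 29.1% and 29.3% in Flag-IP 1 and 3, without overlap. H3 held 13.5% and 12.5% in input and 14.8% and 17.2% in Flag-IP, also without overlap. H2A went the other way, from 29.8% in both inputs to 23.1% and 23.9% in Flag-IP. H1 held 13.6% in both inputs and 11.6% and 10.8% in Flag-IP. H2B held 19.7% and 20.7% in input and 21.4% and 18.9% in Flag-IP, so the highest and the lowest of its shares were both Flag-IP libraries. The difference of the means was 5.78 percentage points for H4, 2.97 for H3, 0.00647 for H2B, -2.42 for H1 and -6.34 for H2A. The H2B value includes the pseudogene HIST2H2BA, which was above 0 only in Flag-IP 3. With pseudogenes left out, the mean H2B share was 20.2% in input and 19.9% in Flag-IP, and the groups still overlapped. The exact permutation test of 2 against 2 libraries cannot go below p = 0.333, so these shares carry no test. Scaling a library by 1 factor leaves them as they are, and they were not computed with quantile scaling.

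**Figure D1:**
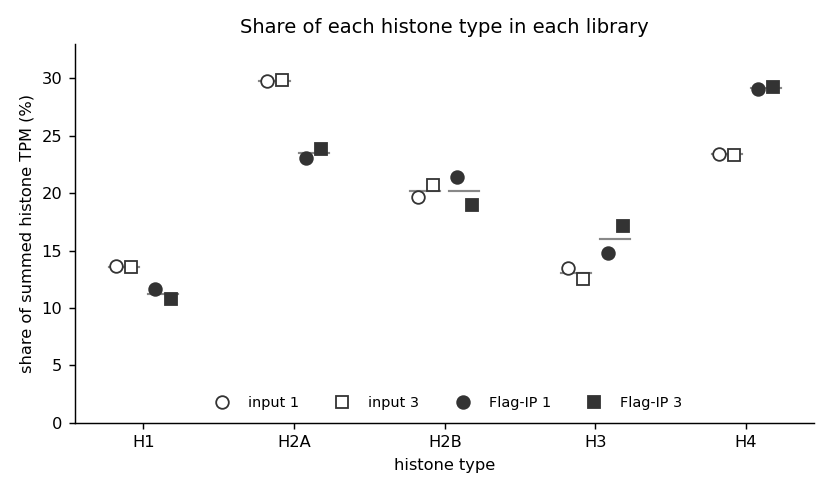
Share of the summed histone TPM held by each histone type (percent, vertical axis) in each of the 4 libraries; open symbols are input, filled symbols Flag-IP, circles replicate 1, squares replicate 3, and grey lines the mean of each group (n = 2). H4 moves from 23.4% and 23.3% to 29.1% and 29.3%, H2A from 29.8% in both inputs to 23.1% and 23.9%, and the H2B libraries overlap.

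Ratios between the types set out the same order within each library. The H4 sum was 0.787 and 0.782 times the H2A sum in input 1 and 3, and 1.26 and 1.23 times in Flag-IP 1 and 3, a change by a factor of 1.58. H3 stood at 0.454 and 0.420 times H2A in input and at 0.643 and 0.719 times in Flag-IP. H2B lay between, at 0.661 and 0.693 times H2A in input and at 0.930 and 0.793 times in Flag-IP. The partners of the H3-H4 tetramer did not separate from each other, with H4 at 1.73 and 1.86 times H3 in input and 1.96 and 1.70 times in Flag-IP. Nor did H1 separate from H2A, at 0.459 and 0.455 times in input and 0.504 and 0.451 times in Flag-IP. H2A and H2B, which pair as a dimer in the nucleosome, therefore did separate, while H3 and H4, the other pair, did not. On the deposited scale the summed level in Flag-IP over input was 2.48 for H4, 2.44 for H3, 1.99 for H2B, 1.63 for H1 and 1.56 for H2A.

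H4 mRNAs encode the most conserved core histone, and their 15 genes lie mostly in the HIST1 cluster. The highest was HIST1H4K at chr6:27831216-27831527, with 274 and 362 TPM in input 1 and 3 and 780 and 659 TPM in Flag-IP 1 and 3. HIST1H4J followed with 176 and 146 TPM in input and 349 and 427 TPM in Flag-IP. The coding sequences of HIST1H4J and HIST1H4K are identical, so the split of reads between them is uncertain, but both were higher in both Flag-IP libraries. HIST2H4A and HIST2H4B, also identical in coding sequence, have the same value in each library, 92.6 and 95.5 TPM in input and 220 and 225 TPM in Flag-IP. HIST1H4E, the H4 gene with the smallest difference, stood at 57.5 and 66.2 TPM in input and at 156 and 125 TPM in Flag-IP. HIST1H4H had the largest, from 24.9 and 26.8 TPM to 94.7 and 92.3 TPM. Every tested H4 gene had its 2 highest values in Flag-IP, as did 93.1% of all tested genes, and the ratio of the means ran from 2.26 (HIST1H4K) to 3.62 (HIST1H4H) with a median of 2.53. Relative to the typical gene, the H4 differences ran from -0.08 to 0.58 on the log2 scale. HIST1H4H stood at 0.58 ± 0.13 (SE, n = 2 per group; limma adjusted p = 0.0155), with adjusted p = 0.0569 without input replicate 1 and 0.0953 without input replicate 3. In each fit that leaves a library out, here and for the genes below, 1 group is a single library, which is assumed to vary like the other group.

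With pseudogenes left out, the H3 mRNAs spanned the widest range of any type, from -0.61 to 0.99 in the log2 difference on the median-ratio scale. HIST1H3B, the highest, stood at 155 and 137 TPM in input 1 and 3 and at 367 and 404 TPM in Flag-IP 1 and 3. HIST1H3H had 119.99 and 124 TPM in input and 282 and 316 TPM in Flag-IP. Both lay close to the typical gene, with ratios of 2.64 and 2.45. HIST1H3C at chr6:26045411-26045821 was further apart, from 50.3 and 51.3 TPM to 179 and 180.1 TPM. HIST1H3J at chr6:27890382-27893106 had the largest difference of any tested member with coding sequence, from 12.6 and 13.1 TPM to 58.6 and 66.6 TPM, a ratio of 4.88. Its log2 difference relative to the typical gene was 0.99 ± 0.17 (SE, limma adjusted p = 0.0076), and the adjusted p stayed below 0.05 in the fits that leave out each library. For HIST1H3C the difference was 0.55 ± 0.14 (SE, limma adjusted p = 0.0268), and the adjusted p was 0.0678 without Flag-IP replicate 3, 0.0668 without input replicate 1 and 0.159 without input replicate 3. The H3 genes of the HIST2 cluster on chromosome 1 were at the other end. HIST2H3A, with an identical copy in HIST2H3C, stood at 63.01 and 66.9 TPM in input and at 88.8 and 116 TPM in Flag-IP, 1.57 times the input.

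H2A mRNAs showed the lowest ratios of the core histones. HIST1H2AI, the highest, stood at 248 and 263 TPM in input 1 and 3 and at 399 and 417 TPM in Flag-IP 1 and 3. HIST1H2AM had 149.9 and 159 TPM in input and 272 and 254 TPM in Flag-IP. HIST1H2AG had 162 and 174 TPM in input and 223 and 233 TPM in Flag-IP. All 3 were higher in both Flag-IP libraries, but by less than the typical gene, with ratios of 1.60, 1.71 and 1.36. HIST2H2AA3, which has an identical copy in HIST2H2AA4, stood at 149 and 166 TPM in input and at 229.97 and 242 TPM in Flag-IP. HIST1H2AJ had the smallest shortfall against the typical gene, from 33.4 and 34.6 TPM to 72.6 and 65.3 TPM. HIST3H2A was the only tested H2A gene that was lower in both Flag-IP libraries on the deposited scale, with 3.03 and 2.90 TPM in input and 1.61 and 2.73 TPM in Flag-IP. On the median-ratio scale each of the 15 tested H2A genes lay below both inputs in both Flag-IP libraries (background 37.1%), and their log2 differences ran from -1.23 to -0.24. HIST1H2AG (-0.82 ± 0.15 SE, limma adjusted p = 0.0087) and HIST3H2A (-1.23 ± 0.21 SE, limma adjusted p = 0.0071) stayed under the threshold without each library in turn. HIST1H2AI (-0.59 ± 0.15 SE, limma adjusted p = 0.0269) did not, at adjusted p = 0.0896 without Flag-IP replicate 1, 0.128 without input replicate 1 and 0.0714 without input replicate 3.

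H2B mRNAs lay between the H2A and the H3 genes. HIST1H2BJ, the highest, had 118 and 130.1 TPM in input 1 and 3 and 287 and 234 TPM in Flag-IP 1 and 3. HIST1H2BO had 109 and 112 TPM in input and 248 and 233 TPM in Flag-IP. HIST1H2BK had 80.2 and 102 TPM in input and 197 and 155 TPM in Flag-IP. Among these the gap to the typical gene was small, with ratios of 2.10, 2.17 and 1.93. HIST1H2BC was further below it, from 113 and 137 TPM to 223 and 202 TPM, a ratio of 1.70. The lowest of the tested H2B rows was HIST2H2BC, an annotated pseudogene, with 1.29 and 1.24 TPM in input and 1.05 and 0.90 TPM in Flag-IP. HIST2H2BA, also an annotated pseudogene, was listed at 0 TPM in both inputs and in Flag-IP 1 and at 48.9 TPM in Flag-IP 3. It passed limma on the deposited scale (log2 difference 2.82, adjusted p = 5.6e-42) although its groups overlap. On that scale the fit took the variance from the trend over the mean level and not from the gene's own spread. On the median-ratio scale its difference of 2.59 ± 1.49 (SE) gave a limma adjusted p of 0.21. Without Flag-IP replicate 1, where it is at 0, the median-ratio difference was 4.95 with a limma adjusted p of 0.000691.

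Of the 4 tested H1 genes, 2 lay near the typical gene and 2 well below it. HIST1H1C stood at 199.95 and 209.6 TPM in input 1 and 3 and at 459.7 and 414 TPM in Flag-IP 1 and 3, and HIST1H1D went from 48.8 and 46.1 TPM to 105 and 87.5 TPM. Their ratios were 2.13 and 2.03. HIST1H1E, as abundant in the input as HIST1H1C with 207 and 234 TPM, reached only 279 and 265 TPM in Flag-IP. HIST1H1B went from 96.5 and 106 TPM to 143 and 124 TPM. The ratios of these last genes were 1.23 and 1.31, and their differences on the median-ratio scale were -0.95 ± 0.12 (SE, limma adjusted p = 0.0029) for HIST1H1E and -0.87 ± 0.11 (SE, limma adjusted p = 0.0026) for HIST1H1B. Both stayed below 0.05 in the fits that leave out each library, in which 1 group is a single library.

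**Figure D2:**
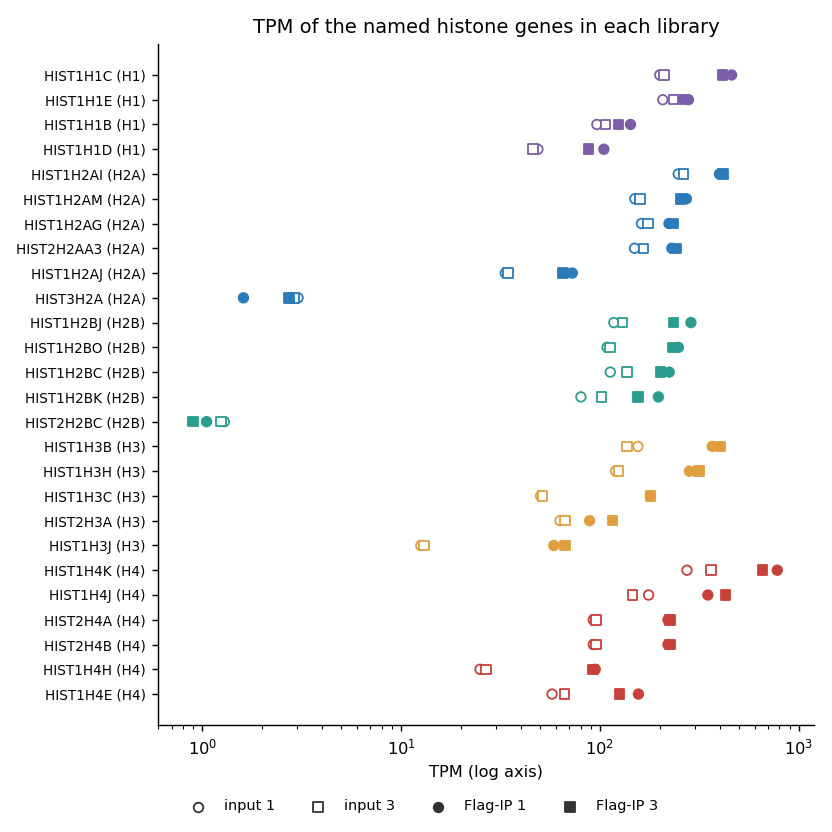
TPM (log axis) of the named histone genes in each library, one row per gene with its histone type; open symbols are input, filled symbols Flag-IP, circles replicate 1 and squares replicate 3, and HIST2H2BA, listed at 0 in 3 libraries, is not drawn. The gap between open and filled symbols is wide for HIST1H3J (12.6 and 13.1 TPM against 58.6 and 66.6 TPM) and HIST1H4H, and narrow for HIST1H1E and HIST1H2AG.

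Across all members, the order by type was the same as in the sums. The median log2 difference on the median-ratio scale was -0.60 for H2A, -0.56 for H1, -0.24 for H2B, 0.01 for H3 and 0.07 for H4, and -0.24 over the 58 tested members together. With quantile scaling, which gives all libraries one distribution of values, the same medians were -0.10, 0.01, 0.28, 0.52 and 0.61, so that the H1 and H2B medians changed sign and the order did not. This order held on both scales under every alternative run except without Flag-IP replicate 1, where H1 lay below H2A and H4 below H3. The lowest H4 gene lay above the highest H2A gene on both scales, HIST1H4E at -0.08 against HIST1H2AJ at -0.24 on the median-ratio scale. The 1 setting in which they crossed was the median-ratio scale without input replicate 1, with HIST1H4K at -0.19 and HIST1H2AJ at -0.18.

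On the deposited scale 52 of the 58 tested members were higher in Flag-IP and 0 lower by limma (adjusted p below 0.05). That is 89.7% higher, against a background of 86.6% higher and 0.74% lower over all tested genes. The 52 calls include HIST2H2BA, which passed the filter only through its 48.9 TPM in Flag-IP 3. Leaving out the annotated pseudogenes gave 51 calls. The variance behind these calls follows the level of a gene and not its own spread between libraries. The 6 that did not pass were HIST1H1B, HIST1H1E, HIST1H2AK, HIST2H2AC, HIST2H2BC and HIST3H2A, which were named after their values were seen. On the median-ratio scale 4 members were higher (6.90%, background 22.3%) and 18 were lower (31.0%, background 18.6%). The lower ones were 10 of 15 H2A, 6 of 17 H2B and 2 of 4 H1 genes, and none of the 11 H3 or the 11 H4 genes. The higher ones were 2 H3 genes, HIST1H3C and HIST1H3J, and 2 H4 genes, HIST1H4H and HIST1H4B. HIST1H4B, named after its values were seen, went from 40.96 and 38.6 TPM in input to 144 and 128 TPM in Flag-IP. Without overlap, 6 members had their higher values in Flag-IP on this scale (background 37%) and 34 of 58 their lower values there (background 37.1%). On the deposited scale 54 members were higher without overlap (background 93.1%) and 2 lower (background 1.09%). The calls on the median-ratio scale rest on few libraries and on the scale: 11, 9 and 10 members were lower without Flag-IP replicate 1, input replicate 1 and input replicate 3, and 7 were higher without Flag-IP replicate 1 and 2 without each of the other libraries. With quantile scaling 24 members were higher and 3 lower, against 1248 higher and 1221 lower of all 6487 genes tested. With the structural RNAs left out of the deposited scale 11 were higher and 17 lower, against 2206 and 711 of all 6283. With the trend over transcript length removed 9 were lower (985 of all 6250), and also 9 with a filter of 5 TPM (355 of all 1539).

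**Figure D3:**
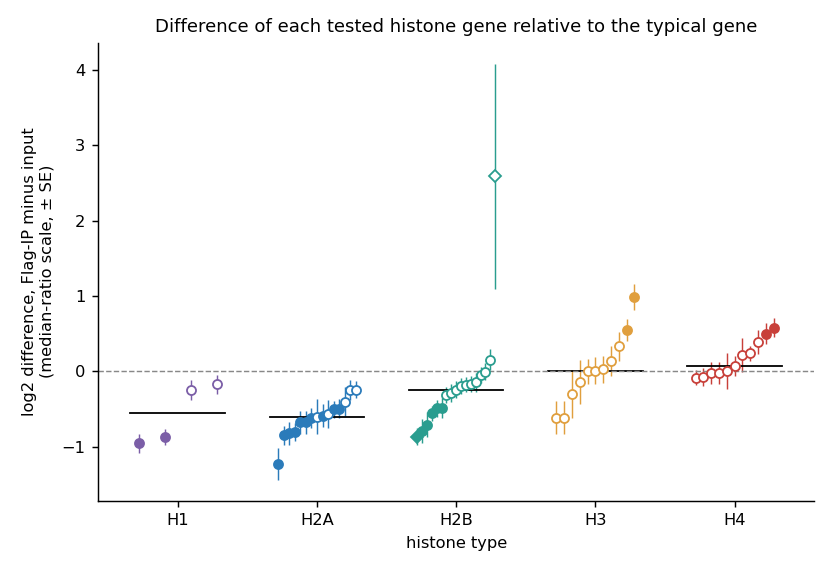
Log2 difference of each tested histone gene, Flag-IP minus input on the median-ratio scale (vertical axis, error bars SE, n = 2 per group), by histone type; filled symbols passed limma at adjusted p below 0.05, diamonds are annotated pseudogenes, black lines the median of each type without pseudogenes and the dashed line the typical gene. The filled H2A, H2B and H1 symbols lie below the dashed line and the filled H3 and H4 symbols above it, and the diamond at 2.59 is HIST2H2BA.

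**Figure D4:**
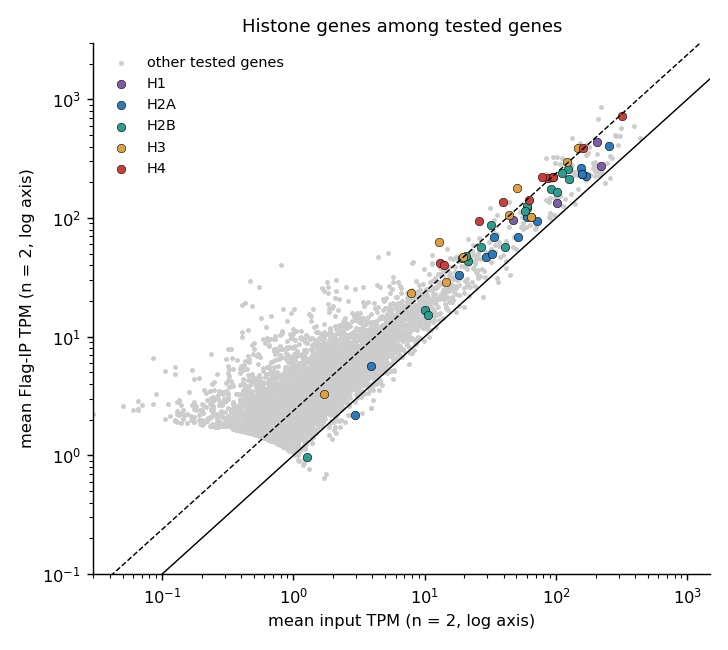
Mean Flag-IP against mean input TPM (log axes, n = 2 per group) of the tested genes that are not structural RNAs, with histone genes coloured by type; the solid line marks equal values and the dashed line the median ratio of 2.38, and genes listed at 0 in both inputs, among them HIST2H2BA, are not drawn. Most histone genes lie at the upper end of the levels. The H2A genes other than HIST3H2A, which is below the solid line, lie between the lines, and HIST1H3J (ratio 4.88) lies well above the dashed line.

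The genes are arranged in clusters, and within H3 the HIST2 genes had the lowest values. The HIST1 cluster spans chr6:25726132-27893843 with 56 members, the HIST3 group chr1:228424845-228460470 with 3, and HIST4H4 lies alone on chromosome 12. The HIST2 group, chr1:121108210-149887916, has 13 members. Its pseudogene HIST2H2BA lies apart at chr1:121108210-121117257, and its other members lie within chr1:149782689-149887916. With pseudogenes left out, the median difference on the median-ratio scale was -0.17 over the 43 tested HIST1 genes, with 4 higher and 10 lower by limma (background 22.3% and 18.6%). It was -0.61 over the 11 tested HIST2 genes, with 0 higher and 5 lower, and both tested HIST3 genes were lower (HIST3H2A at -1.23 and HIST3H2BB at -0.70). Within H3 the median was 0.08 for the 8 HIST1 genes and -0.61 for the 3 HIST2 genes, and the point values did not overlap. The HIST2 values were -0.61 ± 0.22 (SE) for the identical pair HIST2H3A and HIST2H3C and -0.30 ± 0.31 (SE) for HIST2H3D. None of these passed limma. HIST1H3I, the lowest HIST1 H3 gene, stood at -0.14 ± 0.29 (SE), and its gap to HIST2H3D is smaller than either SE. Within H4 the median was 0.21 for the 9 HIST1 genes and -0.02 for the HIST2 pair. The 3 pairs with the same value in every library, each counted as 2 rows here, all lie in the HIST2 group.

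Within a type the copies are close in sequence, which limits how far single genes can be told apart. The nearest member of the same type and coding length shared a median of 90.7% of its coding bases for H2A, 92.9% for H2B, 88.1% for H3 and 87.7% for H4. How the reads of such copies were divided is uncertain for each gene. The sum over a type depends on that division only where the models of its copies differ in length. The 7 tested genes with the stem GGCCCT had a median difference of 0.01 on the median-ratio scale and the 17 with GGCTCT one of -0.59. All genes of the first kind are H4 genes and none of the second are, so the form of the stem and the histone type cannot be told apart. Members with an annotated transcript over 1000 bases, which could hold a longer form, had a lower median than those without one within each core type. Their medians were -0.81 (2 tested) against -0.59 (13) for H2A, -0.27 (6) against -0.20 (9) for H2B, -0.61 (3) against 0.07 (8) for H3 and -0.02 (5) against 0.16 (6) for H4. The H3 median of -0.61 is the value of the identical pair HIST2H3A and HIST2H3C, and HIST1H3H stood at 0.03. Likewise the H4 median of -0.02 is that of the pair HIST2H4A and HIST2H4B, and HIST1H4H stood at 0.58. Within H3, transcript length therefore cannot be told apart from cluster. Over all types together the order was the other way, at -0.16 (16 tested) against -0.24 (40 tested).

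Base composition moved with the difference inside each core histone type. Genes richer in G and C in the coding sequence had lower differences on the median-ratio scale, with Spearman's rho of -0.88 for H3 (n = 11), -0.51 for H2A (n = 15), -0.48 for H4 (n = 11) and -0.47 for H2B (n = 15). These are descriptions across genes that share the same 4 libraries, and genes are not independent replicates. With 1 row for each pair of equal values rho was -0.85 for H3 (n = 10), and without the 2 genes farthest from the median it was -0.71 for H3 (n = 8) and -0.30 for H2A (n = 12). The 3 HIST2 H3 genes all have 67.4% GC in the coding sequence, against 59.1% in HIST1H3B and 59.9% in HIST1H3C and HIST1H3J. Over 5912 other tested protein-coding genes, with the GC of the longest transcript, rho was -0.11. GC did not order the types: the median coding GC of the tested genes was 60.6% for H4 and 58.8% for H2B, while the H4 differences were the higher. What part base composition has in the differences was not tested.

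**Figure D5:**
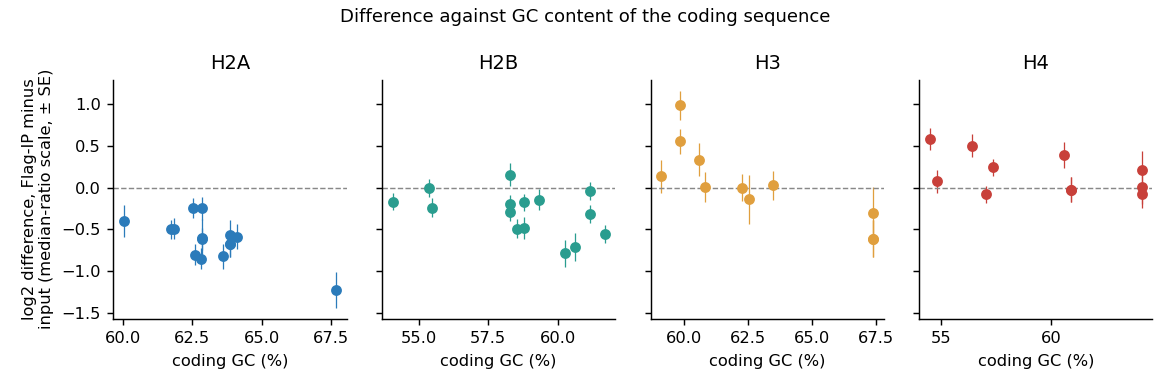
Log2 difference, Flag-IP minus input on the median-ratio scale (vertical axis, error bars SE, n = 2 per group), against the GC content of the coding sequence (percent) for the tested core histone genes, one panel per type. In the H3 panel the genes at 67.4% GC lie at the bottom and HIST1H3J and HIST1H3C, at 59.9%, at the top.

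Short mRNAs as a group also lay below the typical gene. This was read from 183 tested protein-coding genes that are not members and whose longest transcript has at most 1000 bases. Their median difference was -0.36 on the median-ratio scale. By limma 7 of the 183 were higher and 75 lower, against a background of 22.3% higher and 18.6% lower over all tested genes. The median for all tested members, -0.24, was less far below the typical gene than that of these short genes. With the trend over transcript length removed, the histone median was 0.02 and the order of the types was unchanged (H2A at -0.34, H1 at -0.16, H2B at 0.03, H3 at 0.24 and H4 at 0.33).

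Promoters of the members share core elements that the symbol rule did not use. In the RefSeq promoter windows of GRCh38.p14 (250 bases before to 50 after the start, both strands searched), TATAAA was present in 43 of the 65 members matched (66.2%) and in 12.3% of 27305 promoters. CCAAT was present in 55 of 65 (84.6%) and in 35.4% of all. A match describes these letters only and is not a shown binding site.

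Genes that make, process and package histone mRNAs were called by limma in both directions on the median-ratio scale, on which the background is 22.3% higher and 18.6% lower. For transcription of histone genes, 1 of 3 tested genes was higher and 0 lower, with a median difference of 0.07. NPAT, the coactivator of histone gene transcription, was under the filter with 0.17 and 0.28 TPM in input 1 and 3 and 1.52 and 0.92 TPM in Flag-IP 1 and 3. HINFP, which drives H4 promoters, had 0.27 and 0.30 TPM in input and 2.60 and 2.05 TPM in Flag-IP. The filter is a mean over all 4 libraries, so a gene low in input can pass it through Flag-IP alone. HINFP, the gene called higher, did so, as did CASP8AP2 (mean 0.59 TPM in input and 1.565 in Flag-IP). The count for this list therefore carries no weight as to direction. For processing, export and translation, 2 of 16 were higher and 3 lower, with a median of -0.09. SLBP, the stem-loop binding protein, stood at 1.47 and 1.53 TPM in input and 2.94 and 2.19 TPM in Flag-IP, 1.71 times the input. That is less than the median ratio of 2.38 over all genes tested. SLBP was among the 3 called lower, at -0.33 ± 0.10 (SE, n = 2 per group, limma adjusted p = 0.0465). SRRT (ARS2), a cap-binding complex partner, stood at 2.68 and 3.55 TPM in input and 17.02 and 14.3 TPM in Flag-IP. RNU7-1, the U7 small nuclear RNA, was listed at 0 in all 4 libraries, and LSM11, a U7 particle subunit, was under the filter at 0.15 and 0.19 TPM in input and 0.38 and 0.37 TPM in Flag-IP. For histone mRNA decay, 3 of 5 were higher and 1 lower, with a median of 0.36. UPF1, the helicase that acts with SLBP in this decay, had 1.97 and 2.08 TPM in input and 7.71 and 7.21 TPM in Flag-IP. The highest mean over the 4 libraries in these lists was 34.03 TPM, for SNRPB, against a median of 83.5 TPM over the tested histone members.

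Histone genes outside the symbol rule, listed as replication-independent, gave 0 higher and 5 lower of 8 tested genes by limma on the median-ratio scale, with a median of -0.46. H2AFZ (H2A.Z) stood at 13.5 and 14.1 TPM in input 1 and 3 and at 39.9 and 32.4 TPM in Flag-IP 1 and 3, and H2AFX (H2A.X) at 3.70 and 5.1 TPM and at 5.43 and 6.19 TPM. CENPA, the centromeric H3, had 2.64 and 1.85 TPM in input and 7.26 and 5.04 TPM in Flag-IP. Histone chaperones gave 5 higher and 3 lower of 18 (median 0.12), and S phase replication genes 3 higher and 5 lower of 25 (median -0.04). Of those called higher, HIRA, TONSL and RFC5 passed the filter only through Flag-IP, with input means of 0.665, 0.905 and 0.525 TPM. Cytosolic ribosomal proteins gave 10 higher and 46 lower of 77 (median -0.51). The ribosomal protein mRNAs, also short and abundant, ranged from -1.52 (RPL8) to 0.76 (RPS29).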

How the data were processed

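Per the labels' protocols, RNA was sonicated and the library kit was TruSeq Stranded mRNA; whether poly(A) RNA was selected is not stated, which bears on mRNAs without a poly(A) tail. Per the submitters' processing notes, STAR, RSEM and GRCh38 were used; their versions are not stated, and the annotation is not given in the sources used here. Values deposited by the authors are TPM per gene symbol with 2 decimals, summing to 1000000 per library. Depth is unknown.

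Log2(TPM + 1) was fitted with limma 3.58.1 in R 4.3.3 (lmFit, eBayes with a trend, two-sided, Benjamini-Hochberg over the 6487 symbols with a mean of at least 1 TPM over the 4 libraries), tested first on simulated data. The median-ratio scale divides each library by its median ratio to the gene geometric means (0.599 and 0.696 for input 1 and 3, 1.72 and 1.40 for Flag-IP 1 and 3). A fold on the log2(TPM + 1) scale understates changes of low genes. Residual degrees of freedom were 2. Annotation and transcript sequence came from GENCODE 29 by symbol (23794 matched directly, 25 by an older symbol, 3011 not matched).

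The members and lists were chosen with earlier results of these data known. Genes were named by rule: in each type the 4 highest by mean TPM and those with the largest and smallest median-ratio difference, and likewise 2 of the highest in other lists, from which a choice is printed. Alternatives covered filter, pseudocount, scaling, length trend, variance, replicate block and each library left out; leaving out 1 of each identical pair or the pseudogenes was added after seeing the data.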

Additional observations from a re-analysis of the deposited data

How the results depend on the processing

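The number of reads is unknown, 2 libraries a group leave 2 residual degrees of freedom, and no untagged pull-down was analysed. Of the 52 members higher on the deposited scale, 24 were called with quantile scaling and 11 with structural RNAs left out, as counts and not as the same genes; leaving out single libraries gave 40 to 49. The 0 lower became 1 in the crossed replicate block and with the length trend removed, 3 with quantile scaling and 17 with structural RNAs left out, and 0 to 1 without single libraries. On the median-ratio scale the 4 higher became 1 without a filter, 24 with quantile scaling, 2 in the replicate block and 2 to 7 without single libraries. The 18 lower became 9 with the length trend removed or a minimum of 5 TPM, 3 with quantile scaling and 9 to 24 without single libraries. The summed ratio of 1.99 was 0.831 after median-ratio scaling, 0.982 with structural RNAs left out and 1.91 to 2.07 without single libraries. Leaving out 1 of each identical pair gave 49 higher on the deposited scale and 17 lower on the median-ratio scale, and leaving out pseudogenes 51 and 17. Over all genes tested, quantile scaling of the deposited values gave 1243 higher and 1219 lower of 6487. Leaving structural RNAs out gave 2206 higher and 711 lower of 6283. The cause of the changes in the member counts was not tested.

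The deviations of same-numbered libraries correlated at -0.19 over 6487 genes in 2 pairs, and the numbers were not taken to pair the libraries. With the replicate number as a block, 41 members were higher and 0 lower on the deposited scale, and 2 higher and 15 lower on the median-ratio scale. The crossed pairing gave 56 higher and 1 lower, and 5 higher and 23 lower.

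Only the named genes were followed singly. On the deposited scale, log2 differences of these turned negative with quantile scaling for HIST1H1E (-0.34), HIST1H2AI (-0.047), HIST1H2AG (-0.30), HIST2H2AA3 (-0.12), HIST1H2BC (-0.071), CDK2 (-0.27), LSM1 (-0.53), H2AFY (-0.51), H2AFX (-0.66), SSRP1 (-0.45), NAP1L1 (-0.61), CDT1 (-0.91), RPLP1 (-0.24) and SLBP (-0.40). With structural RNAs left out, those of the named genes turned negative for HIST1H1E (-0.71), HIST1H1B (-0.63), HIST1H1D (-0.0065), HIST1H2AI (-0.34), HIST1H2AM (-0.25), HIST1H2AG (-0.58), HIST2H2AA3 (-0.44), HIST1H2AJ (-0.0014), HIST1H2BC (-0.25), HIST1H2BK (-0.069), HIST2H3A (-0.38), CDK2 (-0.051), SNRPB (-0.15), H2AFY (-0.51), H2AFX (-0.60), SSRP1 (-0.52), NAP1L1 (-0.57), CDT1 (-0.89), RPLP1 (-0.40) and SLBP (-0.25). On the median-ratio scale, differences of named genes turned positive with quantile scaling for HIST1H1C (0.34), HIST1H2AM (0.10), HIST1H2AJ (0.35), HIST1H2BO (0.28), HIST1H4K (0.45), HIST2H4A (0.52), HIST2H4B (0.52) and HIST1H4E (0.52).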

Other observations

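Among the 11 tested H4 genes the more abundant ones lay lower on the median-ratio scale: Spearman's rho between the mean TPM and the log2 difference was -0.70, against 0.15 for H3 (n = 11), 0.05 for H2B (n = 15) and 0.01 for H2A (n = 15). The genes share 4 libraries and the same values enter both measures, so this is a description without a test. HIST1H4K, the most abundant, stood at -0.08, and HIST1H4A, at 13.01 TPM in the input, stood at 0.39.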
